A study of Mus musculus with 8 samples.

Results

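The genes described here are 40 genes of ribosome production and Myc-linked growth, named individually as a group: Myc, nucleolar and small nucleolar RNP proteins, assembly factors of both ribosomal subunits, RNA polymerase I and III subunits, and the polyamine enzymes Odc1 and Srm. They were taken as all probes whose platform annotation carries one of the 40 symbols. 36 of them had a named probe, 54 probes in all, and 32 genes (46 probes) passed the detection filter, out of 7502 genes tested in the series. The samples were primary vascular smooth muscle cells (VSMC) from male C57Bl6/J mice aged 8 weeks. In the shUHRF1 group they carried a lentivirus with short hairpin RNA against Uhrf1, which encodes a protein that recruits maintenance DNA methylation to newly replicated DNA, and in the shSCR group a lentivirus with a scrambled hairpin. Both groups went through puromycin selection for 2 days, and RNA was collected after 5 days. Each group holds 2 RNA samples, each measured on 2 Illumina bead arrays, and the 2 arrays of a sample were averaged. Nothing in the labels ties the RNA samples to separate cultures or animals or states that both shUHRF1 samples carried the same hairpin. A p-value here therefore reflects the spread of 4 samples that could be purely technical.

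Ribosome production starts in the nucleolus, where RNA polymerase I transcribes the long ribosomal RNA precursor and RNA polymerase III makes the small 5S species elsewhere in the nucleus. Small nucleolar RNPs modify the precursor, and a large set of assembly factors cleaves and folds it into the small and large subunits before export. Myc, a transcription factor that dimerizes with Max and binds the E-box CACGTG, is known to drive many of these genes together with polyamine synthesis in growing cells. Smooth muscle cells in culture leave their contractile state and proliferate, which needs new ribosomes. The comparison asks whether growth genes move with the genes of the cell cycle when Uhrf1 is reduced.

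Uhrf1 had normalized log2 signals of 9.06 and 8.48 in shUHRF1 samples 1 and 2, against 11.52 and 11.54 in the shSCR samples (difference -2.75, SE 0.23, limma adjusted p = 0.167). Of the 32 tested growth genes, 30 were lower in shUHRF1 cells, with a median log2 difference of -0.38, while the median over all tested genes was -0.01 and 51.5% of them were lower. The 2 higher ones compare with 48.5% of all tested genes. In 29 of the 32 both shUHRF1 samples lay below both shSCR samples, as did 26.9% of all tested genes. In 14 the groups did not overlap on any array and shUHRF1 was the lower, against 8.45% of all tested genes, and in 0 did every shUHRF1 array lie above (8.17% of all). By limma on the averaged arrays, 14 had an unadjusted p below 0.05 with a lower signal and 0 with a higher one, beside 6.62% and 7.9% of all tested genes. Both counts of 14 include Polr3g, which passed the filter only through the shSCR arrays, where it is the higher. With detection required on all 8 arrays, which leaves Polr3g out, 13 of 31 were lower at that p, beside 6.84% of all genes. None of the 32 passed the adjusted threshold of 0.05, which 0 of the 7502 genes reached (0% called), and the adjusted p of the 32 ran from 0.287 to 0.771. The differences are therefore described as lower or higher and not as calls. Of the 46 tested probes, 44 were lower and 2 higher, and in 0 of the 9 genes with several tested probes did the probes differ in sign. 31 of the 32 genes were detected on all 8 arrays.

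The remaining members gave no value. Wdr43, Utp20, Noc2l and Polr1b had no named probe here. Wdr12, Dkc1 and Bysl were not detected on any array, and Nolc1 was detected on 2 of the 4 shUHRF1 arrays and 3 of the 4 shSCR arrays. Since the arrays compare bulk RNA after normalization to a common distribution, fewer cells that express a gene and less of its RNA per cell cannot be told apart.

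**Figure D1:**
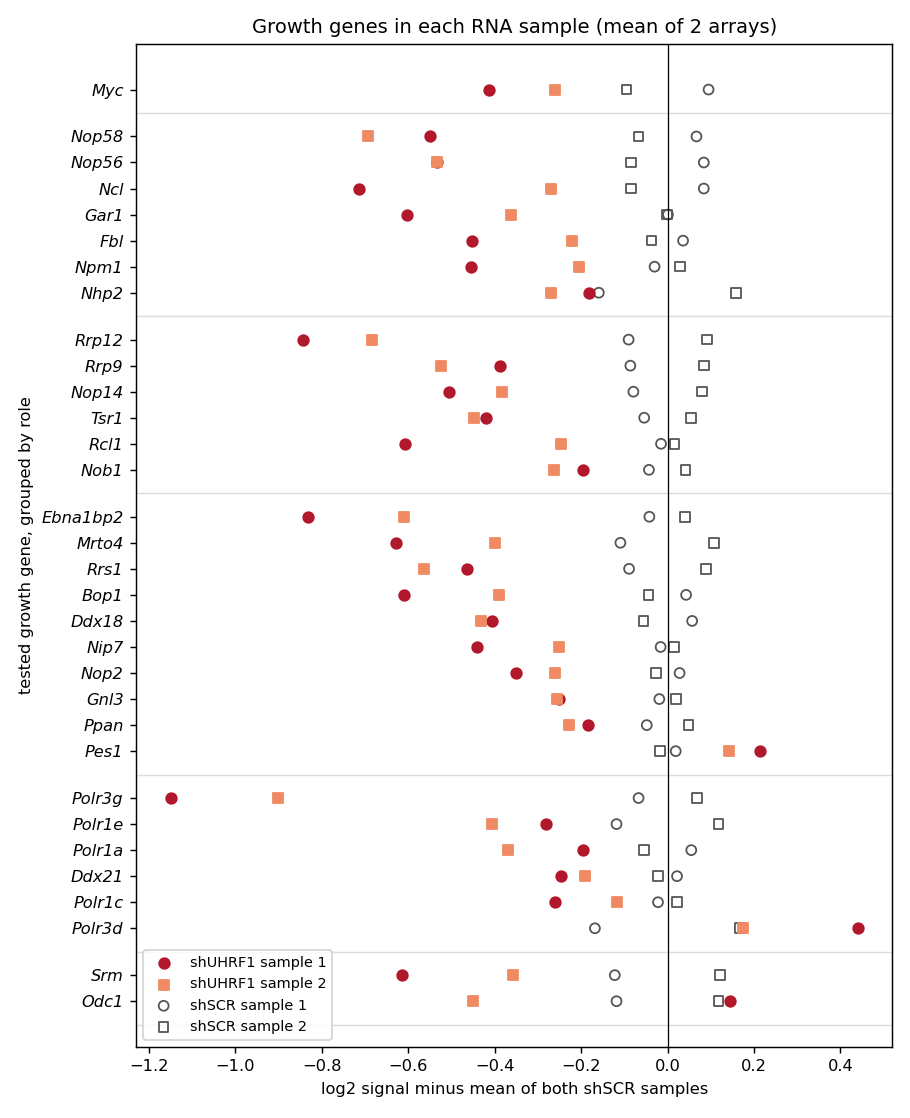
Normalized log2 signal of the 32 tested growth genes in each RNA sample (mean of 2 arrays), minus the mean of both shSCR samples; filled points are shUHRF1 samples 1 (circles) and 2 (squares), open points the shSCR samples. In 29 genes both filled points lie to the left of both open points, and Pes1 and Polr3d are the 2 with a positive difference.

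Myc itself was lower in both shUHRF1 samples. Its detected probe (ILMN_2623526) averaged 6.78 and 6.93 in shUHRF1 samples 1 and 2, against 7.29 and 7.10 in shSCR samples 1 and 2, a log2 difference of -0.34 (SE 0.17, limma adjusted p = 0.399). The array values were 6.52, 7.05, 6.74 and 7.13 in shUHRF1 cells against 7.23, 7.35, 7.32 and 6.88 in shSCR cells. The groups overlapped by array, because the second array of shSCR sample 2 lay below the second arrays of both shUHRF1 samples. The difference was -0.15 with median scaling, -0.10 in the authors' processed values and -0.03 from the second arrays alone. The other Myc probe was not detected on any array.

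All 7 tested genes of the nucleolar scaffold and the small nucleolar RNPs were lower, with a median of -0.48 and a range of -0.62 to -0.23. Nop58, a core protein of the box C/D RNPs that guide methylation of ribosomal RNA, stood at 10.95 and 10.80 in shUHRF1 samples, against 11.56 and 11.43 in shSCR samples. Its difference was -0.62 (SE 0.17, limma unadjusted p = 0.00961, adjusted p = 0.287), with every shUHRF1 array below every shSCR array. Its partner Nop56 stood at 10.49 and 10.49 in shUHRF1 samples and 11.10 and 10.94 in shSCR samples, a difference of -0.53 (SE 0.17), again without overlap between arrays. Ncl, which encodes nucleolin, an abundant nucleolar RNA-binding protein, had 8.91 and 9.35 in shUHRF1 samples against 9.71 and 9.54 in shSCR samples (-0.49, SE 0.21), and the second array of shUHRF1 sample 2 reached into the shSCR range. Its other probe gave -0.52. The remaining members were Gar1, of the H/ACA RNPs that guide pseudouridylation, at -0.48, Fbl, the methyltransferase of the box C/D RNPs, at -0.34, the ribosome chaperone Npm1 at -0.33, and Nhp2, of the H/ACA RNPs, at -0.23. Gar1 and Fbl showed no overlap between arrays, so the box C/D proteins Nop58, Nop56 and Fbl were lower on every shUHRF1 array.

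All 6 tested factors of the small subunit were lower, with a median of -0.44. Rrp12, known from yeast as a factor of late maturation and export of pre-ribosomes, averaged 8.72 and 8.88 in shUHRF1 samples, against 9.47 and 9.65 in shSCR samples. It was 1.70-fold lower (difference -0.77, SE 0.17, limma unadjusted p = 0.00411), and its groups did not overlap on any array. Rrp9, the protein that marks the U3 RNP of early precursor cleavage, had 8.56 and 8.42 in shUHRF1 samples against 8.86 and 9.03 in shSCR samples (-0.46, SE 0.17), while its second shUHRF1 arrays, at 8.87 and 8.92, lay above the lowest shSCR array at 8.77. Nop14, a factor of the early small-subunit precursor, had 8.45 and 8.57 in shUHRF1 samples against 8.88 and 9.04 in shSCR samples (-0.44, SE 0.17), with arrays that overlapped. The others were Tsr1, which binds the late small-subunit precursor, at -0.43, Rcl1, a cyclase-like factor of precursor cleavage, at -0.43 with -0.40 and -0.42 on its other probes, and Nob1, the endonuclease that completes the small-subunit RNA, at -0.23 and -0.46 on its probes. Tsr1 varied widely between arrays of the same shSCR sample, at 6.415 and 7.371 in sample 1 and 6.355 and 7.646 in sample 2. Its first shSCR arrays lay below the second shUHRF1 arrays, at 6.796 and 6.730.

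Of 10 tested factors of the large subunit, 9 were lower and 1 higher, with a median of -0.38. Ebna1bp2, an early assembly factor, averaged 9.46 and 9.69 in shUHRF1 samples against 10.25 and 10.34 in shSCR samples. It was 1.65-fold lower (difference -0.72, SE 0.17, limma unadjusted p = 0.00547), with no overlap between arrays, while its dimmer probes gave -0.44 and -0.07. Mrto4, a relative of the stalk protein P0 that holds its place during assembly, had 9.42 and 9.65 in shUHRF1 samples against 9.94 and 10.16 in shSCR samples (-0.51, SE 0.18). Rrs1, which brings the 5S particle into the precursor, had 5.15 and 5.05 in shUHRF1 samples against 5.52 and 5.70 in shSCR samples (-0.51, SE 0.17). Rrs1 was close to background, and its difference ranged from -0.60 to -0.07 over 15 alternative settings, the smallest in the authors' processed values. Like Ebna1bp2, Mrto4 and Rrs1 had no overlap between arrays.

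Bop1 and Pes1 encode partners in 1 complex with Wdr12, needed for large-subunit RNA processing, and their differences had opposite signs. Bop1 averaged 9.31 and 9.53 in shUHRF1 samples against 9.97 and 9.88 in shSCR samples (-0.50, SE 0.17). Pes1 averaged 9.46 and 9.38 in shUHRF1 samples against 9.26 and 9.23 in shSCR samples (0.18, SE 0.16, limma unadjusted p = 0.31). Bop1 was lower and Pes1 higher in both shUHRF1 samples than in either shSCR sample, although the arrays overlapped for both genes, and Wdr12 was not detected. The helicase gene Ddx18 stood at -0.42, Nip7 at -0.34, the methyltransferase gene Nop2 at -0.31, and Ppan at -0.21. Gnl3, which encodes nucleostemin, a nucleolar GTPase of proliferating cells, stood at -0.25 (SE 0.16) on its brightest probe and at -0.79 (SE 0.17, limma unadjusted p = 0.00299) on the other. On both probes the highest shUHRF1 array lay below the lowest shSCR array.

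Subunits and factors of RNA polymerase I and III were lower in 5 of 6, with a median of -0.25. Polr3g, an RNA polymerase III subunit that is known to be high in embryonic and transformed cells, had the largest difference of the 32 genes as normalized here, a rank it lost in 4 alternatives. It averaged 5.16 and 5.41 in shUHRF1 samples against 6.25 and 6.38 in shSCR samples, a difference of -1.03 that is given without a test. It is dim and 3 of the 4 shUHRF1 arrays detected it, so it passed the filter through the shSCR arrays, and its difference was -0.35 with median scaling, -0.63 with a normexp offset of 50 and -0.17 in the authors' processed values. Ebna1bp2 at -0.65, Rrp12 at -0.72 and Nop58 at -0.59 had the largest difference in those 3 settings, and Tsr1 at -0.745 from the second arrays alone. Polr3d, another subunit of the same polymerase, was the largest in the other direction as normalized here. Its signal was 6.58 and 6.31 in shUHRF1 samples against 5.97 and 6.30 in shSCR samples (0.31, SE 0.20), where shUHRF1 sample 2 and shSCR sample 2 were level. Pes1 was above Polr3d in the authors' processed values (0.13 against 0.07), from the second arrays (0.26 against 0.15) and without shSCR sample 1 (0.196 against 0.14). Among the RNA polymerase I subunits, Polr1e had 8.95 and 8.83 in shUHRF1 samples against 9.12 and 9.35 in shSCR samples (-0.34, SE 0.18). The catalytic subunit gene Polr1a stood at -0.28 with -0.70 and -0.42 on its other probes, and Polr1c, a subunit shared by both polymerases, at -0.19. The helicase gene Ddx21, whose product acts in the nucleolus on precursor transcription, stood at -0.22.

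The polyamine enzymes were both lower on average. Srm, spermidine synthase, averaged 10.57 and 10.82 in shUHRF1 samples against 11.06 and 11.30 in shSCR samples (-0.49, SE 0.19, limma unadjusted p = 0.0404), and its other probes gave -0.40 and -0.47. Odc1, the rate-limiting ornithine decarboxylase and a classical Myc target, averaged 12.10 and 11.51 in shUHRF1 samples against 11.84 and 12.08 in shSCR samples (-0.15, SE 0.24, limma unadjusted p = 0.548). For Odc1 shUHRF1 sample 1 lay above both shSCR samples and shUHRF1 sample 2 below both, so the sign depends on the sample.

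**Figure D2:**
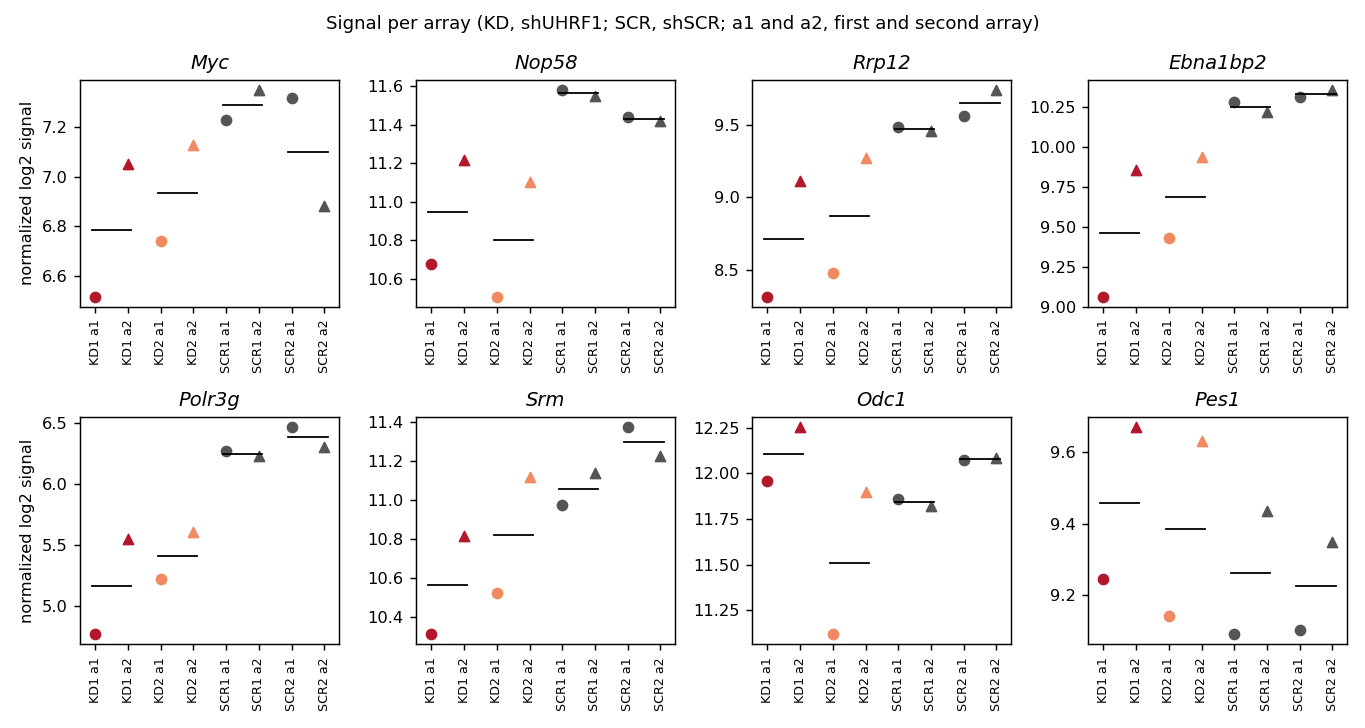
Normalized log2 signal on each of the 8 arrays for 8 growth genes (KD, shUHRF1; SCR, shSCR; a1 and a2, first and second array, circles and triangles), with bars at the mean of each RNA sample; each panel has its own vertical range. Nop58, Rrp12, Ebna1bp2 and Polr3g have every shUHRF1 array below every shSCR array, and in all 8 panels the second shUHRF1 array lies above the first. Polr3g passed the filter only through the shSCR arrays, where it is the higher.

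Promoter sequence was examined for the Myc E-box because most members differed in the same direction. RefSeq windows of 300 bases (250 before to 50 after the annotated start, GRCm38.p6) were matched by symbol for 32 of the 40 genes. CACGTG, which reads the same on both strands, occurred in 5 of these 32 (15.6%), tested or not. It occurred in 8.09% of the windows of all genes with a window, and in 12.2% of those of all tested genes. The 5 genes were Nop2, Tsr1, Pes1, Utp20 and Wdr43. Stretches of 130 bases, from 100 before to 30 after the start, are shown for the 3 tested genes with the word and for Polr3g, an example of a lower gene that lacks it, with the word in capitals and all printed 5′ to 3′ on the strand of the gene.
Nop2: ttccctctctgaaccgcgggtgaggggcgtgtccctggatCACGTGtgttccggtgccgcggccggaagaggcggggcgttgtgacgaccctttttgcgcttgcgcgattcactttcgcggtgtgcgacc
Tsr1: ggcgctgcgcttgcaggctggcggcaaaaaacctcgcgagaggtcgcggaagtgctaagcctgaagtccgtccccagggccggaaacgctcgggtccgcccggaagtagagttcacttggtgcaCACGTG
Pes1: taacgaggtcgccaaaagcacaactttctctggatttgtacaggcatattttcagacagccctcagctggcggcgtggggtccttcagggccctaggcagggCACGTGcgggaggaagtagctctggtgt
Polr3g: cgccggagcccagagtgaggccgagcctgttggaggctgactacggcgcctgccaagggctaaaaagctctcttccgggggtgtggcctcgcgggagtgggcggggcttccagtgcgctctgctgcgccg
The stretches lie at chr6:125131783-125131912 (plus strand) for Nop2, chr11:74897980-74898109 (plus strand) for Tsr1, chr11:3963875-3964004 (plus strand) for Pes1 and chr13:81710984-81711113 (minus strand) for Polr3g. The word begins at position -60 in Nop2, 25 in Tsr1 and 3 in Pes1, counted from 1 at the first transcribed base. Of these 3 genes, Nop2 and Tsr1 were lower in shUHRF1 cells, at -0.31 and -0.43, and Pes1 was higher at 0.18. The word was present in 12.5% of the 24 tested members with a window, close to the 12.2% of all tested genes. Counted over listed genes, tested or not, it was in 23.8% of the windows of other ribosome assembly factors. On the same count it was in 24.1% for the polymerases, 25.7% for translation factors and tRNA synthetases and 28.6% for the Myc network. Polyamine turnover had 27.3%, replication 17.1%, ribosomal proteins 10.3% and mitosis 7.89%. A match of letters does not show binding.

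Other ribosome assembly factors, a longer list of related genes, were lower with a similar median. Of 80 tested, 74 were lower with a median of -0.37, and 25 had an unadjusted p under 0.05 by limma, all of them lower. Among all tested genes, 6.62% reached that p with a lower signal. When detection on all 8 arrays was required, 78 of the 80 remained and their median was again -0.37. The largest differences were those of Lyar, a nucleolar protein of growing cells, at -0.99 (SE 0.26), with 7.37 and 7.75 in shUHRF1 samples against 8.25 and 8.86 in shSCR samples, and of Wdr3, a factor of the small-subunit precursor, at -0.80 (SE 0.19). Other subunits and factors of RNA polymerase I and III were lower in 21 of 26, with a smaller median of -0.15, led by Gtf3c6, a part of the polymerase III factor TFIIIC, at -0.48 (SE 0.17) and Cd3eap, a polymerase I subunit, at -0.47 (SE 0.17). Translation factors and tRNA synthetases were lower in 36 of 39 with a median of -0.21, with Lars, the leucyl-tRNA synthetase, at -0.49 (SE 0.20) and Farsa, of the phenylalanyl-tRNA synthetase, at -0.64. Farsa is dim and passed the filter through the shSCR arrays, where it is the higher, since 3 of the 4 shUHRF1 arrays detected it. In that list the median of shSCR sample 2 minus sample 1 was -0.17, close to the group difference.

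The ribosomal proteins themselves centred near 0. Of 53 tested cytosolic ribosomal protein genes, 23 were lower and 30 higher, with a median of 0.01. By limma, 1 had an unadjusted p under 0.05, with a higher signal, beside 7.9% of all tested genes. That gene, Rpl22, stood at 0.87 (SE 0.20), with 10.02 and 9.97 in shUHRF1 samples against 9.34 and 8.90 in shSCR samples, and the next largest difference was that of Rps15a at -0.51 (SE 0.26). The list's median was -0.04 with median scaling and -0.03 from the second arrays, so it has no stable sign. Ribosomal protein genes have many processed copies in the genome, and probes may not tell them apart.

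Partners and antagonists of Myc were mixed, with 4 of 9 tested genes lower and a median of 0.07, a sign that turned under 3 of the alternatives. Antagonists that compete with Myc for Max differed in sign on average. Mxd3 stood at -0.28, with -0.64 for shUHRF1 sample 1 and 0.08 for sample 2 relative to the shSCR mean. Mxi1 stood at 0.09, with -0.09 and 0.28 in the same order, so the sign of both genes depends on the sample. Mxd4 and Mnt had the largest differences of the list. Mxd4 averaged 7.696 and 7.10 in shUHRF1 samples against 6.85 and 6.52 in shSCR samples (0.72, SE 0.25, limma unadjusted p = 0.0274), while Mnt averaged 5.21 and 5.02 in shUHRF1 samples against 4.62 and 4.68 in shSCR samples. Mnt passed the filter through the shUHRF1 arrays, where it is the higher, and was detected on 1 of the 4 shSCR arrays, so its difference of 0.47 is given without a test. Among 5 tested genes of polyamine synthesis and turnover other than Odc1 and Srm, 4 were higher, led by Smox, spermine oxidase, which breaks polyamines down, with 8.01 and 7.42 in shUHRF1 samples against 6.78 and 6.87 in shSCR samples (0.89, SE 0.23, limma unadjusted p = 0.00795). Oaz2, an antizyme that inhibits ornithine decarboxylase, stood at 0.36 (SE 0.17). The other higher genes, Oaz1 at 0.04 and Sat1 at 0.09, were not above the shSCR mean in shUHRF1 sample 2 (-0.001 and -0.115). Relative to the shSCR mean, the list's median was 0.30 in sample 1 and -0.001 in sample 2. Lower Srm stood beside higher Smox and Oaz2, none of them past the adjusted threshold.

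**Figure D3:**
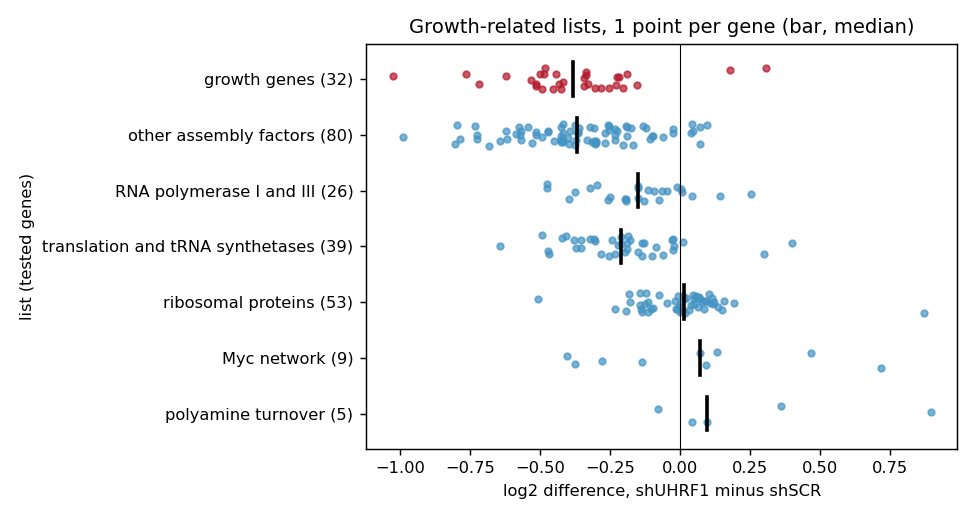
Log2 difference, shUHRF1 minus shSCR, of each tested gene in the growth genes and 6 related lists, with a bar at the median; the number of tested genes is in brackets. Growth genes and other assembly factors centre on -0.38 and -0.37, ribosomal proteins on 0.01.

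Growth genes and cell cycle genes were both lower in shUHRF1 cells, and their values in each shUHRF1 sample are set side by side here. Of 35 tested DNA replication genes 34 were lower (median -0.54), led by Rrm2 at -0.89 (SE 0.32) and Lig1 at -0.79 (SE 0.22), and of 27 tested for mitosis 26 were lower (median -0.69), led by Kif2c at -1.02 (SE 0.38) and Aurka at -0.997 (SE 0.34). Set against the mean of the same shSCR samples, growth genes had a median of -0.43 for shUHRF1 sample 1 and -0.36 for sample 2. Replication genes had -0.79 for sample 1 and -0.26 for sample 2, and mitosis genes -1.22 for sample 1 and -0.23 for sample 2. Compared directly, without the shared controls, shUHRF1 sample 1 minus sample 2 had a median of -0.07 over the growth genes, -0.02 over other assembly factors, -0.51 over replication genes and -0.98 over mitosis genes.

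Gene by gene, sample 1 lay below sample 2 in 18 of 32 growth genes, against 34 of 35 replication genes and 26 of 27 mitosis genes, where 48.9% of all tested genes did so. The replication gene that went the other way was Rrm2, a subunit of ribonucleotide reductase, at -0.51 in sample 1 and -1.27 in sample 2 relative to the shSCR mean. The growth genes with the largest gap were Odc1, at 0.59 for sample 1 minus sample 2, and Ncl, at -0.45 in the same direction of subtraction. Between the shSCR samples, sample 2 minus sample 1 had medians of 0.05, 0.07 and 0.06 for growth, replication and mitosis genes. Sample 2, with the smaller cell cycle difference, had the lower Uhrf1 signal. With 1 sample on each side, the difference between the shUHRF1 samples has no replicate check.

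**Figure D4:**
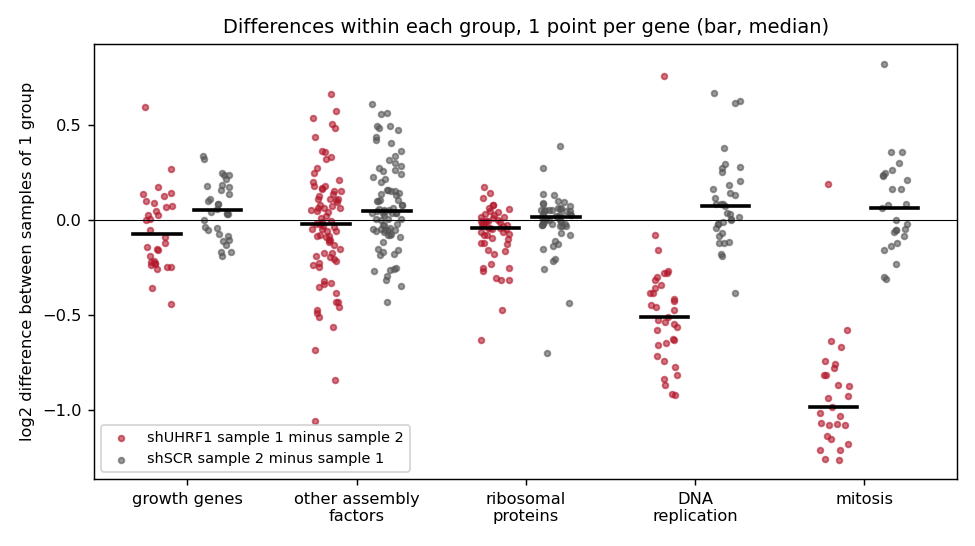
Log2 difference between samples of 1 group for each gene of 5 lists, shUHRF1 sample 1 minus sample 2 in red and shSCR sample 2 minus sample 1 in grey, with bars at the medians. Between the shUHRF1 samples, 34 of 35 replication and 26 of 27 mitosis genes lie below 0 (medians -0.51 and -0.98), while growth genes, other assembly factors and ribosomal proteins centre between -0.07 and -0.02.

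The size of the growth gene difference also varied with the array. Relative to the mean of the shSCR arrays, their median was -0.63 on the first and -0.29 on the second array of shUHRF1 sample 1, and -0.51 on the first and -0.18 on the second array of sample 2. On the shSCR arrays it ran from -0.08 to 0.04. The second array was higher than the first in 29 of 32 growth genes in shUHRF1 sample 1 and in 28 of 32 in sample 2, by a median of 0.38 in each, against 19 and 20 of 32 in the shSCR samples, by 0.04 and 0.03. Other assembly factors had the same order, at -0.47 and -0.20 on the arrays of shUHRF1 sample 1 and -0.51 and -0.19 on those of sample 2. Mitosis genes had the reverse order in sample 1, at -0.91 and -1.49, and the same order in sample 2, at -0.33 and -0.09. Replication genes stood at -0.74 and -0.79 in sample 1 and at -0.43 and -0.11 in sample 2. In sample 2 the second array was higher in 30 of 35 replication genes, by a median of 0.36. The contrast of growth genes with cell cycle genes in array order is thus limited to sample 1. What the first and second arrays stand for beyond a repeat measurement is not stated in the labels. Smooth muscle markers went the same way, with the second array higher by a median of 0.76 and 0.70 in the shUHRF1 samples against -0.13 and 0.01 in the shSCR samples, and fibroblast markers the other way, at -0.41 and -0.63 against -0.11 and 0.04. The part of either in the growth gene values was not tested.

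Compared within the array number, the growth gene median was -0.50 from the first arrays, with 30 of 32 lower, and -0.27 from the second arrays, with 28 of 32 lower. By limma, 16 growth genes had an unadjusted p below 0.05 from the first arrays (50% of the 32, against 9.61% of all tested genes lower at that p) and 2 from the second (6.25% against 3.15%), all lower. The value was lower from the first arrays in 27 of the 32 genes, as for Rrp12 at -1.13 and -0.41, Ebna1bp2 at -1.05 and -0.39, Nop58 at -0.92 and -0.33, Polr3g at -1.37 and -0.69, and Myc at -0.65 and -0.03 from the first and second arrays. It was lower from the second arrays in 5, which were Tsr1 at -0.12 and -0.745, Gnl3 at -0.21 and -0.30, Nop14 at -0.43 and -0.46, Polr1c at -0.13 and -0.25, and Polr3d at 0.46 and 0.15, in the same order. Over all tested genes, the median absolute difference between the arrays of a sample was 0.28 and 0.25 in the shUHRF1 samples and 0.14 in each shSCR sample.

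**Figure D5:**
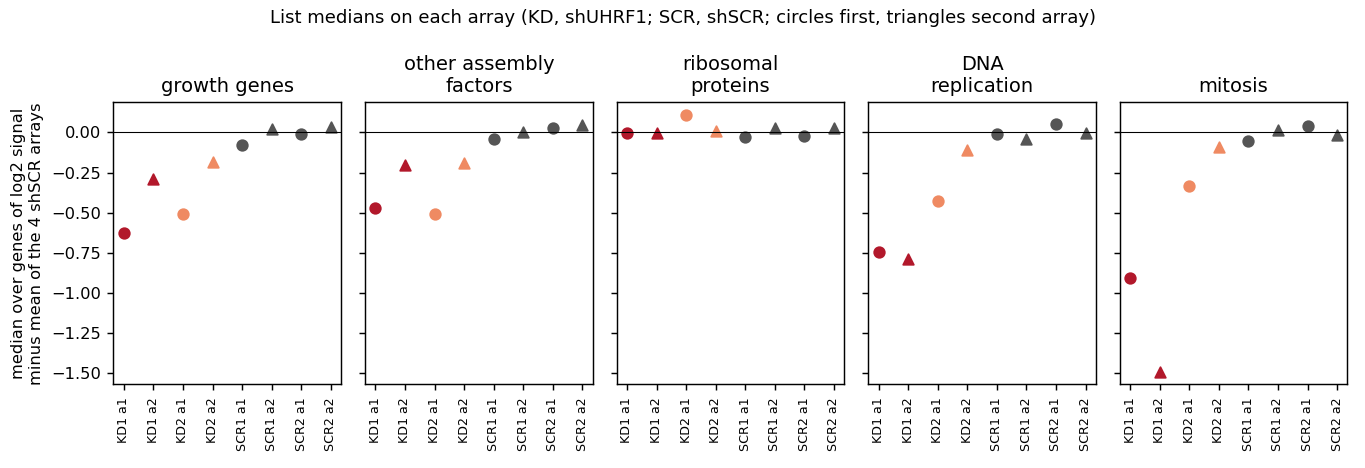
Median over the genes of a list of the normalized log2 signal minus the mean of the 4 shSCR arrays, on each array (KD, shUHRF1; SCR, shSCR; circles first, triangles second arrays). Growth genes and other assembly factors are lower on the first than on the second array of both shUHRF1 samples, whereas replication and mitosis genes are lower in shUHRF1 sample 1 than in sample 2. Within sample 2, replication and mitosis genes are also lower on the first array.

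The count of 14 growth genes at an unadjusted p under 0.05 was 7 without shUHRF1 sample 1 and 11 without sample 2, and 5 without shSCR sample 1 and 5 without sample 2. The shares of all tested genes lower at that p were 3.68% and 10% without shUHRF1 samples 1 and 2, and 3.97% and 2.63% without shSCR samples 1 and 2, against 6.62% with all samples. Of the growth genes, 29 or 30 of 32 were lower in each of these fits. Markers of smooth muscle and other cells were also compared between the groups. Fibroblast markers were higher in 6 of 7 tested genes (median 0.77), with a summed linear signal of 2480 and 2770 in shUHRF1 samples against 1795 and 1405 in shSCR samples. All 7 were lower in shUHRF1 sample 1 than in sample 2. Dpt, Pdgfra and Cd34 lay below the shSCR mean in sample 1 and above it in sample 2. The median was 0.19 from the second arrays, and Scara5 passed the filter only through the shUHRF1 arrays, where it is the higher. Smooth muscle markers were higher in 4 of 5, with sums of 26117 and 22970 in shUHRF1 samples against 12661 and 22556 in shSCR samples. Most of these sums is Acta2, which averaged 14.56 and 14.35 in shUHRF1 samples against 13.44 and 14.33 in shSCR samples. The late contractile markers Myh11 and Cnn1 were not detected on any array. Endothelial markers were lower in 2 of 3, with sums of 556 and 585 against 557 and 681, and macrophage and leukocyte markers lower in 1 of 2, with sums of 414 and 364 against 392 and 533, in shUHRF1 and shSCR samples. The other macrophage and leukocyte marker, Aif1, passed the filter only through the shUHRF1 arrays, where it is the higher at 0.04. It was detected on 2 of the 4 shSCR arrays. Cdh5, Emcn, Vwf, Adgre1, Ptprc and Cd52 were not detected on any array. Genes of RNA and cell stress were higher in 6 of 7, with a median of 0.23. Relative to the shSCR mean it was 0.61 for shUHRF1 sample 1 and -0.14 for sample 2. The other gene, the chaperone gene Hsp90aa1, stood at -0.62 (SE 0.17). In 1 of the 7 both shUHRF1 samples lay above both shSCR samples, beside 24% of all tested genes. In 1 they lay below both, beside 26.9%. The part of these cells and of stress in the growth gene difference, and in the contrast of the shUHRF1 samples, was not tested.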

How the data were processed

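Expression was measured on 8 Illumina bead arrays, grouped by the shRNA in the labels. The deposited values are a linear mean intensity for each probe and array and a detection p-value, per the file headers. The submitters' processing notes name GenomeStudio 2011.1 and lumi, without stating any background step. A deposited table of the authors' processed values, on a log2-like scale whose transform and base are not stated (median 7.86 on every array), served as an alternative.

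Of 25671 probes 2 were unreadable and left out. 23950 carried 1 gene symbol, 0 several and 1719 none. Intensities went through neqc (normexp from detection p-values, offset 16, quantile, log2) in limma 3.58.1 (R 4.3.3). Probes detected at p under 0.05 on all 4 arrays of a group were tested (10880), and a gene is its brightest tested probe. The arrays of a sample were averaged and shUHRF1 minus shSCR fitted with lmFit and eBayes, with Benjamini-Hochberg adjustment over tested probes. SE is the moderated standard error. The fit was tested on simulated data. Precision is limited by how few RNA samples and arrays there are. An array detected 45.1% to 48.2% of the probes, and its median raw signal was 103.4 to 123.3.

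The 40 members, related lists, markers and naming rule were chosen with earlier results of these data known. The rule took Myc, the polyamine enzymes, the 3 members of each role and the 2 genes of each related list with the largest absolute difference. Bop1, Pes1, Gnl3, Mxd3, Mxi1, Oaz1, Sat1, Dpt, Pdgfra and Cd34 were added after their values were seen. Alternatives changed background and scaling, filter, arrays, blocks, weights, probe choice and samples.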

Additional observations from a re-analysis of the deposited data

How the results depend on the processing

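The growth genes were lower in 28 to 30 of the 32 under every alternative that kept the same genes, in 29 of 31 with detection on all 8 arrays and in 34 of 36 without a filter, and 0 passed limma's adjusted threshold under any that gives a p. Of the differences of the 32 growth genes, only those of Nhp2 (0.003 from the second arrays) and Odc1 (0.12 from the second arrays, 0.14 without shUHRF1 sample 2, -0.451 without sample 1) changed sign. With median scaling the medians were -0.33 for growth genes, -0.24 for other assembly factors, -0.084 for RNA polymerase I and III and -0.035 for ribosomal proteins. With an offset of 50 they were -0.34 for growth genes, -0.32 for other assembly factors and -0.13 for the polymerases. In the authors' processed values, a compressed scale, they were -0.26, -0.19 and -0.085 in the same order, with 23 growth genes lower at an unadjusted p under 0.05, beside 7.73% of all genes. Without a filter other assembly factors stood at -0.32 and the polymerases at -0.13, and 25 of 36 growth genes reached that p, beside 5.56% of all genes. From the first arrays growth genes stood at -0.50, other assembly factors at -0.49 and ribosomal proteins at 0.055, and from the second arrays at -0.27, -0.22 and -0.034, with translation factors and tRNA synthetases at -0.13 and 2 growth genes at that p (3.15% of all genes). The Myc network median was -0.033 with detection on all 8 arrays and -0.073 as a mean over probes. Leaving out 1 RNA sample gave medians of -0.43 to -0.36 for growth genes, -0.41 to -0.33 for other assembly factors, -0.17 to -0.14 for the polymerases, -0.79 to -0.26 for replication, -1.22 to -0.23 for mitosis, -0.018 to 0.081 for the Myc network and -0.001 to 0.32 for polyamine turnover, and 5 to 11 growth genes at that p. For Uhrf1, limma's adjusted p of 0.167 was 0.0438 from the second arrays (difference -2.92), 0.00182 with a random block for each RNA sample, 0.0115 with the array number as a replicate block and 0.0416 with the RNA sample number as a replicate block, at a difference of -2.75 in each block fit. The cause of these shifts was not tested.

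Samples share RNA sample numbers in the titles, but in the sample descriptions the groups share no number, and no label states a shared batch. The number was therefore not treated as a pairing. Deviations of same-numbered samples from their group means were weakly correlated across probes (r = -0.15). With the RNA sample number as a replicate block 10 growth genes had an unadjusted p under 0.05 and were lower, beside 6.3% of all genes, and with the numbers crossed, a fit chosen after seeing the data, 14, beside 7.98%, with 0 at an adjusted p under 0.05 in both. Polr3g and Rrs1 lie close to background, and their differences and that of Polr3d varied with the background and scaling settings.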
